A study of Mus musculus with 16 samples.

Results

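The genes described are 10 keratins of simple and stratified epithelia (Krt4, Krt5, Krt7, Krt8, Krt14, Krt18, Krt19, Krt20, Krt23 and Krt80), read on whole-transcript arrays from cultured mouse small intestine. They were taken by name, from the deposited values table, as every probe set annotated with that single gene symbol. The rule found 10 probe sets for 9 of the 10 genes, among 41345 probe sets in all, with 2 probe sets for Krt18 and 1 for each of the other 8. The only probe set for Krt5 also carries the symbol Krt6a and was not used, so Krt5 has no value here. All 9 measured keratins passed the filter on dim genes, as did 18095 of the 22180 genes with a probe set of a single symbol. The list was chosen by gene family with results of these data in view: the differences of Krt4 and Krt80 between co-cultured and monocultured epithelium were already known to be among the largest. Differences between the epithelial and adenoma groups are therefore given as a description, with no p-value for the listed genes.

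The study cultured small intestinal organoids, which are epithelial structures grown in 3 dimensions from crypts, with or without myofibroblasts, the contractile fibroblasts of the intestinal wall. The 5 groups were Apc+/1638N adenoma cells (4 animals on 6 arrays), wild-type epithelial organoids co-cultured with myofibroblasts (2 animals), the same organoids in monoculture (the same 2 animals), wild-type myofibroblasts co-cultured with epithelium (3 animals) and the same myofibroblasts in monoculture (the same 3 animals). All were C57Bl/6 mice killed at 8 to 10 weeks of age and labelled male. In co-culture the myofibroblasts sat on an insert with 0.4 µm pores above the organoids for 24 h, without direct contact. The Apc+/1638N mouse carries 1 truncated copy of Apc, the brake on Wnt signalling, and develops intestinal adenomas. Adenoma cells were arrayed without a co-culture counterpart, and how they were grown is not given in the labels, so genotype, lesion and culture history cannot be told apart. The titles of adenoma animals P21 and P23 carry the tag T2 and those of P34 and P36 do not, and the adenoma labels also carry "n=3". Neither is explained.

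Keratins form the intermediate filaments of epithelial cells. Each filament is built from pairs of a type I keratin (here Krt14, Krt18, Krt19, Krt20 and Krt23) and a type II keratin (here Krt4, Krt5, Krt7, Krt8 and Krt80), and the filaments are anchored at desmosomes and hemidesmosomes. Krt8, Krt18, Krt19 and Krt20 are the usual set of intestinal epithelium, with Krt20 strongest in differentiated villus and surface cells. Krt7 is typical of ductal and other simple epithelia. Krt5 and Krt14 form the filaments of basal cells in stratified epithelium, and Krt4, paired with Krt13, those of the suprabasal layers of non-keratinising mucosa such as the oesophagus. The mouse type I genes lie in a cluster on chromosome 11 and the type II genes on chromosome 15, except that Krt18 lies beside Krt8 on chromosome 15.

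Sequence upstream of the start site was at hand for 7 of the 10 keratins (RefSeq, build GRCm38.p6) and not for Krt4, Krt19 and Krt80. Shown are the 250 bases upstream of Krt20 (chr11:99438154-99438403, minus strand), whose level was the lowest in adenoma relative to epithelium, and of Krt23 (chr11:99493121-99493370, minus strand), Krt7 (chr15:101412153-101412402, plus strand) and Krt18 (chr15:102027966-102028215, plus strand), whose levels were higher in adenoma than in epithelium alone. Capitals mark matches, on either strand, to the TATA box TATAAA, the AP-1 motif TGANTCA, the TEAD motif GGAATG, the KLF motif CCACNCCC or the GATA motif GATAA.
Krt20: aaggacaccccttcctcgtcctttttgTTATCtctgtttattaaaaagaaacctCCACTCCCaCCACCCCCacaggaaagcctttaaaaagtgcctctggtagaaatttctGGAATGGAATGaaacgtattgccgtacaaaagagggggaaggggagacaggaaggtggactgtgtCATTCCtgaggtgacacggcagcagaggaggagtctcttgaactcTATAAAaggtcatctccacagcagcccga
Krt23: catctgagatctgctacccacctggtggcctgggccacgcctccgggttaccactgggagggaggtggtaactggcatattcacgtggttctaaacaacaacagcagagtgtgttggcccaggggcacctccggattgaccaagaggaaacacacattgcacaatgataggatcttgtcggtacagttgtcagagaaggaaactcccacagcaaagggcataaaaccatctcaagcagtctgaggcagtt
Krt7: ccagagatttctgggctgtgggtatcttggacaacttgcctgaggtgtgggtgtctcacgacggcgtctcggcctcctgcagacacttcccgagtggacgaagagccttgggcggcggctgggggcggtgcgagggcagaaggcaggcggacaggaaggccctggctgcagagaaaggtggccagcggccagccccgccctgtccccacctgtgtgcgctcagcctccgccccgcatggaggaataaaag
Krt18: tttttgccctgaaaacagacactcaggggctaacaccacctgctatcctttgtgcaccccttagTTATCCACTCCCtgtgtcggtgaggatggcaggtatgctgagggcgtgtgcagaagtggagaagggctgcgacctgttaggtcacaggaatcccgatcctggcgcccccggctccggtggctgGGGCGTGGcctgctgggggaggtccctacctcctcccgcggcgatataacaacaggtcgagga
The Krt20 window held a TATA box starting 29 bases upstream of the start site, 3 TEAD matches (starting 139, 134 and, on the opposite strand, 74 bases upstream), 2 KLF matches and 1 GATA match. The Krt18 window held 2 KLF matches and 1 GATA match, which overlaps the first of them by 1 base. No match to these 5 motifs was found in the Krt23 and Krt7 windows. Of 32851 windows of the same length, 12.4% held the TATA letters, 6.75% the AP-1, 12.6% the TEAD, 15.9% the KLF and 22.6% the GATA letters. A match describes letters only and shows no binding.

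All values are log2 levels, so a difference of 1 is a doubling. Levels are compared between groups and never between genes, since each probe set has its own scale. Epithelial markers (8 genes, among them Epcam and Cdh1) averaged 8.88 in adenoma, 10.60 in co-cultured and 10.46 in monocultured epithelium, against 3.02 and 3.20 in co-cultured and monocultured myofibroblasts. The 8 genes differed in how adenoma stood to monoculture. Cdx1 (3.69 against 8.28), Cldn3 (7.77 against 11.78) and Cdx2 (7.67 against 9.39) were furthest below it. Vil1 (10.25 against 11.71), Cldn7 (9.17 against 9.86) and Epcam (10.35 against 11.04) were lower by less. Cdh1 (11.89 against 11.42) and Elf3 (10.28 against 10.17) were not lower. Fibroblast markers (8 genes, among them Col1a1 and Pdgfra) averaged 3.05 in adenoma, 3.04 in co-cultured and 3.24 in monocultured epithelium, against 10.80 and 10.74 in the myofibroblast cultures. The myofibroblast cultures also carried immune markers (8 genes, 8.48 in co-culture and 8.37 in monoculture). In 4 samples labelled male, both cultures of epithelial animal P28 and of myofibroblast animal Pl_III, Xist was at 7.57 or higher and the Y-linked Eif2s3y at 3.20 or lower, which goes against the label. Keratin counts in co-cultured epithelium, and the co-culture calls of the other gene lists, are given with and without P28 and Pl_III. Other results are given without them only in part. The repeat arrays of adenoma animals P21 and P34 were averaged and differed by 0.00274 to 0.216 over these probe sets.

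**Figure D1:**
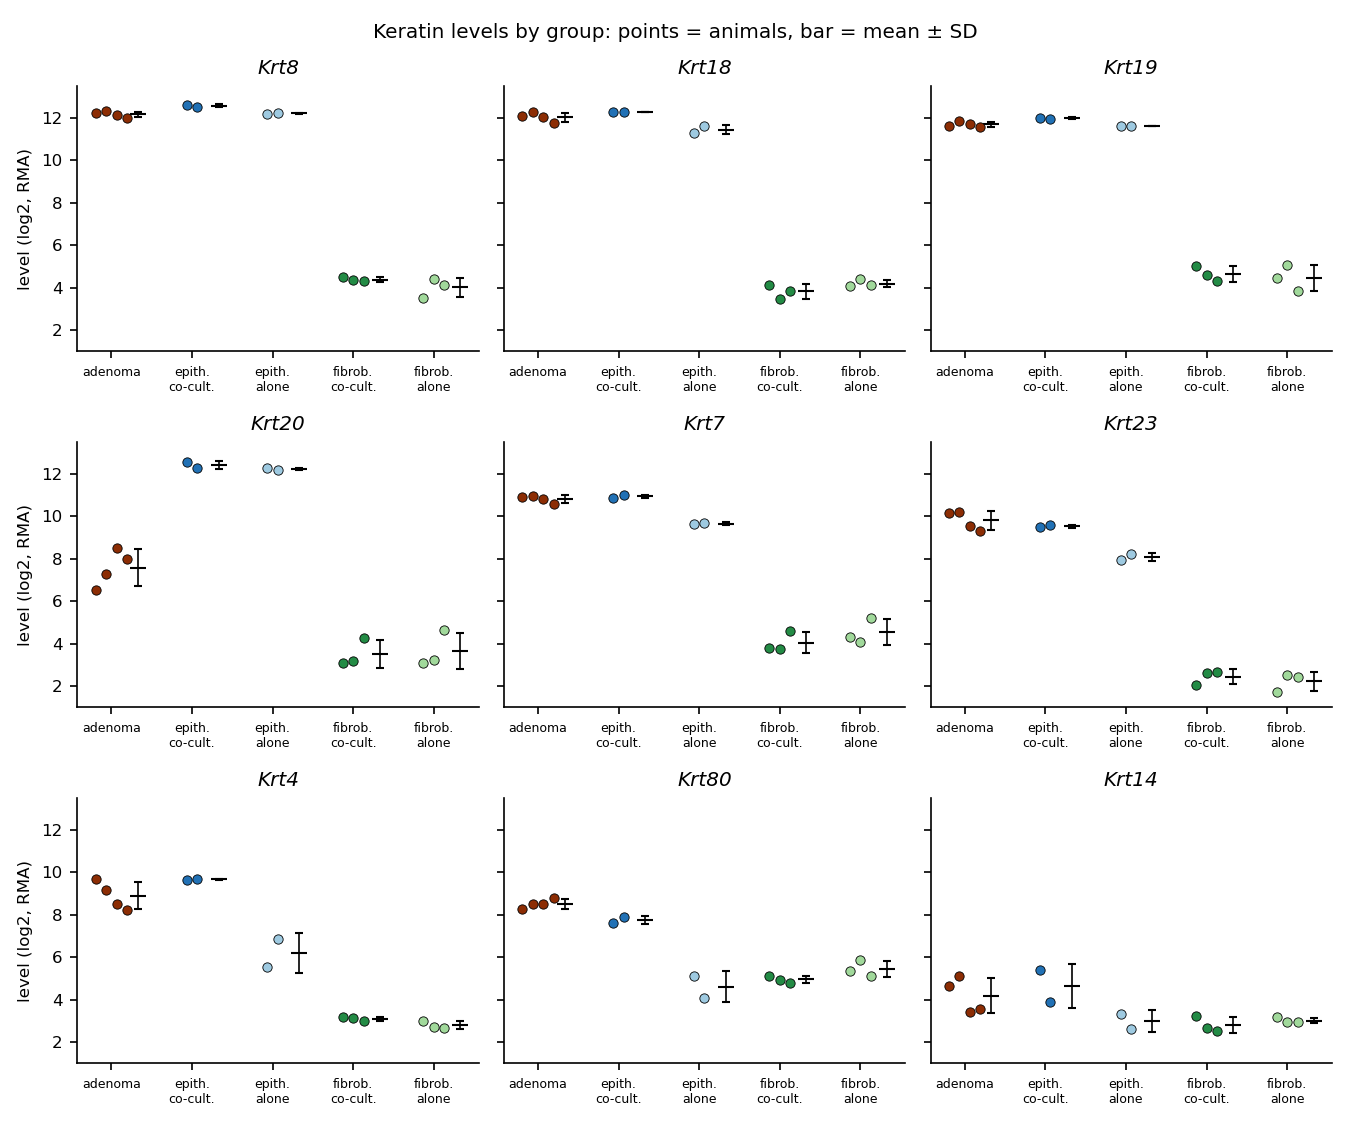
Level of each measured keratin (log2, vertical axis) in adenoma, co-cultured epithelium, epithelium alone (monoculture), co-cultured fibroblasts and fibroblasts alone. Points are animals and bars show the mean ± SD (n = 2 to 4). For Krt80 and Krt14 the epithelium alone samples overlap the fibroblast samples, and for Krt20 the 4 adenoma samples (6.51 to 8.52) lie far below both epithelial groups.

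In epithelium co-cultured with myofibroblasts the levels of Krt4, Krt80 and Krt23 were higher than in monoculture, and all 9 keratins had a positive difference. Of the 9, 3 were called higher and 0 lower at an adjusted p under 0.05 (limma with Benjamini-Hochberg adjustment over all genes), against 4.03% of all genes called (2.71% higher and 1.32% lower). The rule used this contrast, so nothing is read from that count. The median keratin difference was 1.28, and the median of all genes -0.02. With animal as a replicate block the count was 4, Krt7 being added. With P28 and Pl_III left out it was 1 (Krt80, with 69 genes called in all), and in a fit of the epithelial cultures alone, 2 samples against 2, it was 0, with 0 genes called in all. Of 7 mesothelial markers, a cell type that also carries simple keratins, 5 were tested and 1 was called higher in co-culture: mesothelin (Msln), at 9.90 and 10.52 in co-culture and 6.83 and 7.86 in monoculture. It was no longer called without P28 and Pl_III (2.66, adjusted p = 0.080 with limma). Upk3b, at 4.80 and 5.73 in co-culture and 4.20 and 5.07 in monoculture, and Upk1b, at 5.48 and 5.39 in co-culture and 4.48 and 4.69 in monoculture, were also higher in both animals but were not called. The list averaged 4.43 (4.29 to 4.56) in co-culture and 3.84 (3.70 to 3.99) in monoculture, while Wt1, Lrrn4, Muc16 and Bnc1 ran between 1.44 and 3.94 over both. In adenoma Msln read 10.92, 10.76, 11.58 and 11.41, above every epithelial sample. Upk3b and Upk1b went the other way, with adenoma means of 3.83 and 3.91, below the means of both epithelial groups. The part of the mesothelial markers in the keratin differences was not tested.

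**Figure D2:**
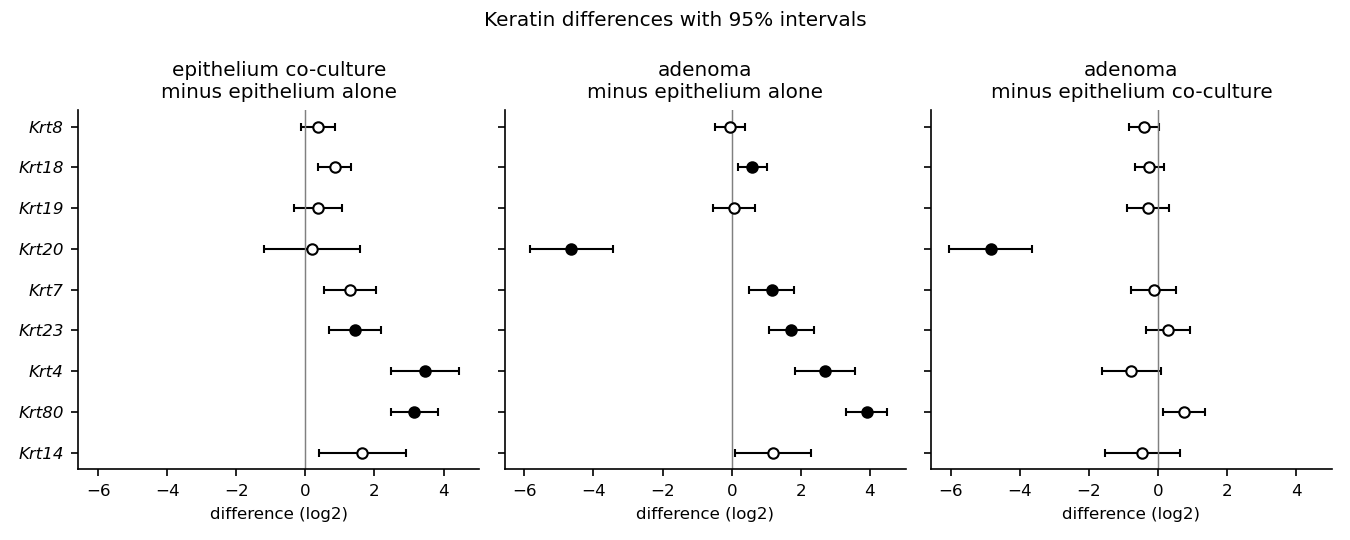
Difference in log2 level (horizontal axis) for each keratin, with its 95% interval, in co-cultured epithelium minus epithelium alone (monoculture), adenoma minus epithelium alone and adenoma minus co-cultured epithelium. Filled points were called at an adjusted p under 0.05. Krt4 and Krt80 stand to the right in the first and second panels, and Krt20 stands alone to the left wherever adenoma is compared.

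The simple epithelial keratins Krt8 and Krt19 were high in every epithelial and adenoma sample, with no called difference among the epithelial and adenoma groups. Krt8 stood at 12.21, 12.32, 12.12 and 11.99 in adenoma animals P21, P23, P34 and P36, at 12.62 and 12.52 in co-cultured epithelium of P28 and P30, and at 12.20 and 12.22 in their monocultures. The adenoma range contained both monoculture values, and both co-cultures lay above all the others. Adenoma minus monoculture was -0.05 with a 95% interval of -0.49 to 0.38, and co-culture minus monoculture was 0.36 ± 0.23 (SE). Krt19 gave 11.63, 11.83, 11.73 and 11.56 in adenoma, 12.01 and 11.94 in co-culture and 11.61 and 11.63 in monoculture. It likewise had its 2 highest values in co-culture, with overlapping adenoma and monoculture samples (difference 0.07, interval -0.53 to 0.68).

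Krt18, the type I partner of Krt8, read 12.07, 12.26, 12.06 and 11.75 in adenoma, 12.29 and 12.28 in co-cultured epithelium and 11.29 and 11.59 in epithelium alone. Both monocultures lay below every adenoma and co-culture sample. The difference was 0.59 ± 0.19 in adenoma (1.51-fold, called) and 0.85 ± 0.22 in co-culture (1.80-fold, not called), both against monoculture. The co-culture difference was called in 2 of 12 alternatives. The adenoma call rests on which probe set and samples are used. It was lost at 0.42 with the mean of both Krt18 probe sets, at 0.43 after cyclic loess, at 0.44 without the monoculture of P28 and at 0.52 without adenoma animal P23. The dimmer Krt18 probe set had differences of the same sign with smaller sizes, 0.25 for adenoma and 0.73 for co-culture, each minus monoculture. On it adenoma and monoculture overlapped, with adenoma animal P36 (9.42) below the monoculture of P30 (9.58).

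Krt20, the keratin of differentiated villus cells, was far lower in adenoma than in either epithelial group. It stood at 6.51, 7.30, 8.52 and 7.99 in the 4 adenoma animals, 12.56 and 12.28 in co-cultured epithelium and 12.26 and 12.19 in monoculture. The highest adenoma sample was still 3.67 below the lowest epithelial one, and the adenoma animals spread over more than 2 log2 units. The adenoma mean was 7.58 ± 0.87 (SD, n = 4) against 12.23 ± 0.04 in monoculture (n = 2), a difference of -4.64 ± 0.55 or 25.0-fold. Against co-culture it was -4.84 ± 0.55. Between co-culture and monoculture Krt20 differed by 0.20 ± 0.64, with an interval that spans 0. That SE comes from a spread shared by all 5 groups. The Krt20 SD was 0.19 in co-culture and 0.65 and 0.86 in the myofibroblast cultures. Within animals co-culture minus monoculture was 0.30 in P28 and 0.09 in P30. Beside Krt20, the 6 enterocyte markers, which include sucrase-isomaltase (Sis) and the fatty acid binding protein Fabp1, averaged 3.72 in adenoma, 11.09 in co-culture and 11.68 in monoculture. In bulk samples, fewer cells of a type and less RNA per cell cannot be told apart.

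Krt7 and Krt23 had closely placed adenoma and co-culture levels, both above epithelium alone. Krt7 stood at 10.90, 10.98, 10.83 and 10.56 in adenoma, 10.88 and 10.998 in co-culture and 9.61 and 9.70 in monoculture. Its adenoma and co-culture values overlapped and neither reached down to monoculture. The adenoma difference against monoculture was 1.16 ± 0.30 (2.23-fold, called), and that of co-culture was 1.28 ± 0.35 (2.43-fold, not called). In the animals themselves co-culture minus monoculture was 1.27 in P28 and 1.30 in P30, and with animal as a block the difference was 1.28 ± 0.15 and was called. Without the monoculture of P28 the adenoma call was lost at 1.12.

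Krt23, a type I keratin of simple epithelia, read 10.15, 10.22, 9.56 and 9.32 in adenoma, 9.48 and 9.57 in co-culture and 7.95 and 8.21 in monoculture. Adenoma animals P21 and P23 lay above both co-cultures, P34 and P36 at or near them, and every one of these samples above monoculture. Against monoculture the difference was 1.73 ± 0.30 in adenoma (3.32-fold) and 1.44 ± 0.34 in co-culture (2.72-fold), both called. The co-culture call was lost whenever any 1 of the 4 epithelial samples was left out, at differences of 1.31 to 1.57. Between adenoma and co-culture the difference was 0.29, with an interval of -0.36 to 0.94.

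Krt4, the suprabasal keratin of oesophageal-type mucosa, was near its co-culture level in adenoma. It stood at 9.68, 9.16, 8.53 and 8.23 in adenoma, 9.65 and 9.68 in co-culture and 5.52 and 6.88 in monoculture. The co-cultures lay within 0.1 of each other while the monocultures differed by more than 1, and adenoma samples reached from the co-culture level downwards without meeting monoculture. Co-culture minus monoculture was 3.47 ± 0.45 (11.1-fold), with 4.13 in P28 and 2.81 in P30. Adenoma minus monoculture was 2.70 ± 0.39 (6.50-fold). Adenoma minus co-culture was -0.77 ± 0.39 and was not called, though it was at -1.03 without adenoma animal P21. Without P28 and Pl_III the co-culture difference of 2.81 was no longer called. Krt13, the usual type I partner of Krt4, stayed between 2.93 and 3.37 in all 8 epithelial and adenoma samples.

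Krt80, a type II keratin that is found in many epithelia and is linked to their differentiation, had the largest positive difference of the 9 in adenoma against epithelium alone. It stood at 8.26, 8.50, 8.50 and 8.81 in adenoma, 7.63 and 7.89 in co-culture and 5.12 and 4.09 in monoculture. These 3 groups did not overlap. Adenoma minus monoculture was 3.91 ± 0.27, and co-culture minus monoculture 3.16 ± 0.32 (8.93-fold), with 2.52 in P28 and 3.80 in P30. Adenoma minus co-culture was 0.75 ± 0.27 and not called, but it was called in 3 of 14 alternatives, among them the fit without adenoma animal P21 (0.84). Krt80 was also the 1 keratin called lower in epithelium than in myofibroblasts, both in monoculture: it read 5.12 and 4.09 in epithelium, against 5.34, 5.85 and 5.12 in myofibroblasts. The lowest myofibroblast sample was equal to the higher epithelial one to 2 decimals, and the difference of -0.83 ± 0.29 shrank to -0.32 without epithelial animal P30 and to -0.63 without myofibroblast animal Pl_II, in both cases uncalled.

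**Figure D3:**
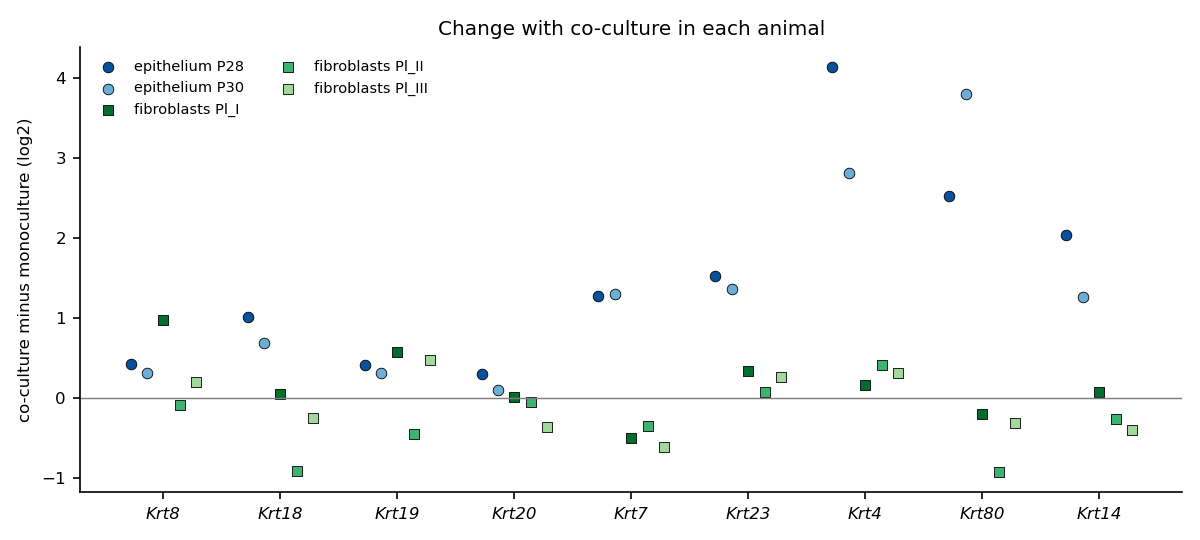
Co-culture minus monoculture log2 level (vertical axis) within each animal for the 9 keratins: circles are the 2 epithelial animals and squares the 3 myofibroblast animals. The circles and squares are mixed for Krt8 and Krt19, and for Krt4 and Krt80 both circles lie at 2.52 or more while no square passes 0.41.

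Krt14, the basal cell keratin, varied by animal. It stood at 4.66, 5.13, 3.41 and 3.57 in adenoma, 5.39 and 3.90 in co-culture and 3.35 and 2.64 in monoculture, with 2.53 to 3.23 over the 6 myofibroblast samples. Its highest values were the P28 co-culture and adenoma animals P23 and P21. The difference against monoculture was 1.20 ± 0.50 in adenoma and 1.65 ± 0.58 in co-culture, and neither was called. The adenoma difference was called at 1.46 without P34 and at 1.41 without P36. Adenoma minus co-culture was -0.45 and turned to 0.29 without P28. Krt6a, a keratin of stressed and wounded stratified epithelium that is not among the listed genes, was high in the same 3 samples. It read 6.52, 7.13, 2.50 and 1.97 in adenoma, 5.44 and 2.01 in co-culture and 2.12 and 1.83 in monoculture. The probe set shared by Krt5 and Krt6a did not set these 3 samples apart. That probe set read 4.41, 4.19, 4.11 and 3.74 in adenoma, 5.12 and 4.19 in co-culture and 4.71 and 3.90 in monoculture. Trp63, the defining transcription factor of basal squamous cells, lay between 2.84 and 3.35 in all 8 of these samples. The squamous marker list (8 genes, which holds Krt14 and Krt6a themselves) averaged 3.39 in adenoma, 3.35 in co-culture and 2.85 in monoculture. By animal this list averaged 3.70 and 3.91 in P21 and P23, and 3.01 and 2.95 in P34 and P36. It averaged 3.72 and 2.97 in the P28 and P30 co-cultures, and 2.99 and 2.72 in their monocultures. Its part in the Krt14 values was not tested.

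Over the 9 keratins, 5 were called higher and 1 lower in adenoma than in epithelium alone, against 41.0% of all genes called (22.5% higher and 18.5% lower). The higher genes were Krt80, Krt4, Krt23, Krt7 and Krt18, and the lower was Krt20. Against co-cultured epithelium, 0 were higher and 1 (Krt20) was lower, against 33.3% of all genes called, 19.0% higher and 14.3% lower. Both comparisons use the same adenoma samples. The list was put together with these results known, so neither share is read as a result about keratins. With 1 sample left out, the 6 calls against epithelium alone became 4 to 7 and the 1 call against co-culture became 1 to 3 (3 without P21, with Krt4 and Krt80 added).

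Myofibroblasts in monoculture had low levels of most keratins, which checks the label of both cultures. Epithelium alone was called higher for 7 of the 9 and lower for 1, against 50.7% of all genes called, 24.2% higher and 26.5% lower. The differences were 8.58 for Krt20, 8.19 for Krt8, 7.25 for Krt18, 7.17 for Krt19, 5.85 for Krt23, 5.12 for Krt7 and 3.40 for Krt4. Krt14 differed by -0.02 ± 0.53 and was dim in both. In the opposite direction, vimentin (Vim), the intermediate filament protein of mesenchymal cells, differed by -7.42 (adjusted p = 2.35e-11 with limma) and nestin (Nes) by -5.72.

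The myofibroblasts themselves showed no called keratin change with co-culture. Of the 9 keratins 0 were called (adjusted p = 1.00 for each, limma), 0 passed an unadjusted p under 0.05, and 0.00553% of all genes were called, which is 1 gene. Of all 18095 genes, 513 passed the same unadjusted threshold. Keratin differences ran between -0.50 for Krt7 and 0.36 for Krt8, with a median of -0.14. For Krt80, co-cultured Pl_I, Pl_II and Pl_III stood at 5.14, 4.92 and 4.81, against 5.34, 5.85 and 5.12 in monoculture. The cultures overlapped narrowly, and the difference was -0.48 with an interval of -1.05 to 0.08. Within Pl_I, Pl_II and Pl_III, co-culture minus monoculture was -0.21, -0.93 and -0.31 for Krt80 and -0.51, -0.36 and -0.62 for Krt7, so both were lower in 3 of 3 animals. With animal as a replicate block the differences were -0.48 ± 0.25 for Krt80 (adjusted p = 0.94, limma) and -0.50 ± 0.13 for Krt7 (adjusted p = 0.53), and 0 of the 9 keratins were called.

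The difference between the 2 co-culture responses, epithelium minus myofibroblasts, was called for Krt80 (3.64 ± 0.41) and Krt4 (3.18 ± 0.58), against 1.11% of all genes called, 0.834% higher and 0.271% lower. It contains the same epithelial samples as the co-culture contrast, so it is a description too. For Krt7 it was 1.78 ± 0.45, for Krt18 1.22 ± 0.29 and for Krt14 1.85 ± 0.74, none of them called, and for Krt8 it was 0.00. On the dimmer Krt18 probe set it was 0.46. There the myofibroblast co-culture difference was 0.27, where the brighter Krt18 probe set gave -0.37. Krt80 was called in 17 of 17 alternatives and Krt4 in 8 of 17. Without P28 and Pl_III the Krt4 difference was 2.52 and not called.

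The adenoma animals titled T2 (P21 and P23) were set against the other adenoma animals (P34 and P36). Of the 9 keratins 0 were called (limma), against 7.14% of all genes called (3.65% higher and 3.49% lower). At an unadjusted p under 0.05 there were 4 of the 9, against 3001 of all 18095 genes. T2 minus other was 1.41 ± 0.42 for Krt14 (adjusted p = 0.0739), 1.04 ± 0.34 for Krt4 (adjusted p = 0.114) and 0.75 ± 0.27 for Krt23 (adjusted p = 0.160). Krt20 differed by -1.35 ± 0.52 (adjusted p = 0.186). For each of these 4 the T2 animals lay wholly on one side of the others, but the same held for Krt7, Krt8 and Krt18. With P28 and Pl_III left out of the shared spread, which changes no adenoma value, 3 were called: Krt14 (adjusted p = 0.0085), Krt20 (0.0216) and Krt4 (0.0223). The share of all genes called in that fit is not given here, so nothing is read from its count. Apart from Krt14, Krt4, Krt23 and Krt20, the other 5 keratins differed by between -0.27 and 0.26.

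**Figure D4:**
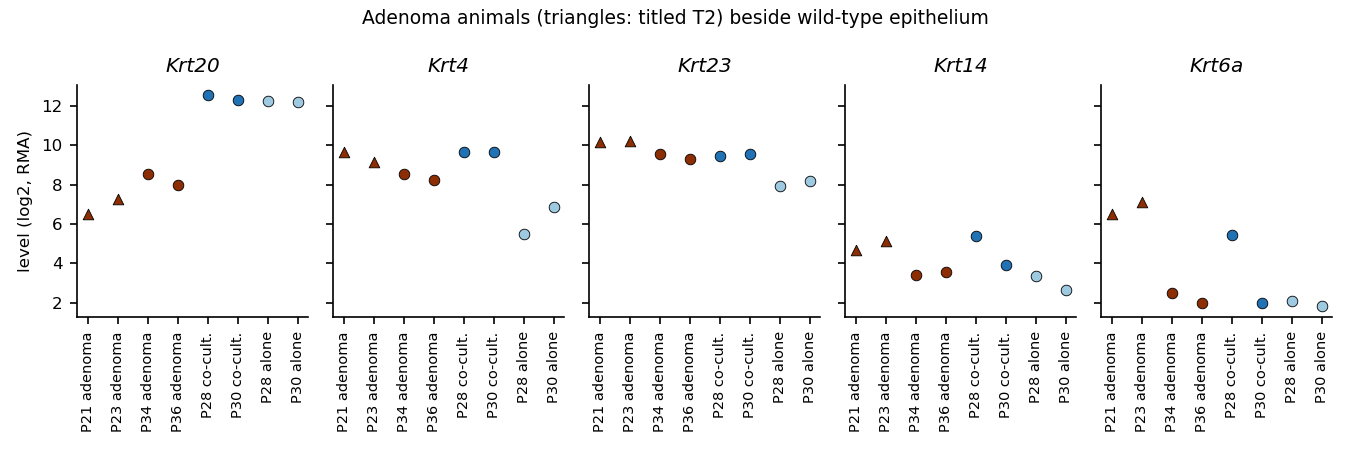
Log2 level (vertical axis) of Krt20, Krt4, Krt23, Krt14 and Krt6a in each adenoma animal (triangles: P21 and P23, titled T2), each co-cultured and each monocultured (alone) epithelial sample. Krt14 and Krt6a are high in P21, P23 and the P28 co-culture, and Krt20 is lower in P21 and P23 than in P34 and P36.

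The same split of the adenoma animals ran through other cell type markers. The 4 Paneth cell markers averaged 9.29 and 10.00 in P21 and P23, against 3.13 and 2.69 in P34 and P36. The 6 gastric markers ran the other way, at 3.91 and 3.93 in P21 and P23, against 6.94 and 7.51 in P34 and P36. Among transcription factors, Sox2, a factor of stomach and oesophagus, differed by -5.84 (T2 minus other, adjusted p = 2.01e-08), and the intestinal factor Cdx2 was 1.63 higher (adjusted p = 1.29e-04). Of the 34 other keratins tested, 2 were called higher and 0 lower in the T2 animals (limma). Of all genes, 7.14% were called, 3.65% higher and 3.49% lower. They were Krt6a, by 4.59 (adjusted p = 0.0035), and Krt39, by 1.08 (adjusted p = 0.0065) at a dim adenoma mean of 3.74. Their part in the keratin differences between these animals was not tested.

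Of the 34 other tested keratins, 1 was higher and 0 were lower in co-cultured than in monocultured epithelium, against 4.03% of all genes called. That gene was Krt79, a keratin of skin appendages, at 8.14 and 8.30 in co-culture and 6.26 and 7.23 in monoculture (difference 1.48 ± 0.37, adjusted p = 0.047). It read 5.78, 6.42, 6.41 and 6.41 in adenoma, a difference of -1.96 against co-culture (adjusted p = 5.41e-04). In adenoma against monoculture 1 was higher (Krt36, by 0.68) and 3 were lower (Krt12, Krt33b and Krt42, with differences of -0.72, -0.85 and -0.70), where 41.0% of all genes were called. These 4 were dim, with group means of 2.79 to 4.48 in adenoma and monoculture, beside array medians of 3.48 to 3.58. In adenoma against co-culture 2 were higher and 2 lower, where 33.3% of all genes were called. Without P28 and Pl_III, Krt79 was not called in co-culture (1.07, adjusted p = 0.30), and 1 of the 4 calls in each adenoma comparison was kept. The median difference of these 34 genes was -0.07 in co-culture and -0.01 in adenoma, each against monoculture.

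Among 19 tested partners of keratin filaments at desmosomes and hemidesmosomes, 1 rose with co-culture and 0 fell, against 4.03% of all genes called. This was periplakin (Ppl), which links keratin filaments to desmosomes, at 9.98 and 9.89 in co-culture and 8.66 and 8.53 in monoculture (difference 1.34 ± 0.20, adjusted p = 0.0039). In adenoma against monoculture 4 rose (Pkp4, Ppl, Itgb4 and Dsg3) and 4 fell (Dst, Plec, Dsc2 and Pkp3), against 22.5% and 18.5% of all genes. In adenoma against co-culture 0 rose and 5 fell (Dst, Plec, Dsc2, Pkp3 and Ppl), against 19.0% and 14.3% of all genes. Dystonin (Dst) and plectin (Plec), linkers at the hemidesmosome, differed by -1.57 and -1.06 from monoculture (adjusted p = 3.37e-04 and 0.0013). Without P28 and Pl_III, Ppl was just short of the call in co-culture (1.37, adjusted p = 0.052), 5 of the 8 calls against monoculture were kept (not Itgb4, Dsg3 and Pkp3) and 4 of the 5 against co-culture (not Ppl). Plakophilin 1 (Pkp1), a desmosomal plaque protein of stratified epithelium, was 2.22 higher in the T2 adenoma animals (adjusted p = 6.87e-05).

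The 28 measured squamous differentiation genes averaged 4.29 (4.26 to 4.35) in adenoma, 4.37 (4.35 to 4.38) in co-culture and 4.04 (3.95 to 4.14) in monoculture. Every adenoma and co-culture sample lay above both monocultures in this average. Of 26 tested, 1 rose in co-culture, dermokine (Dmkn, by 0.86, adjusted p = 0.040), and 0 fell, against 4.03% of all genes called. The median difference was 0.18, and that of all genes -0.02. In adenoma against monoculture 4 rose and 1 fell, against 22.5% and 18.5% of all genes, with a median of -0.02. In adenoma against co-culture 3 rose and 3 fell, against 19.0% and 14.3%. Sciellin (Scel), a cornified envelope protein, read 7.74, 7.82, 7.52 and 6.89 in adenoma, 2.81 and 2.64 in co-culture and 2.71 and 2.53 in monoculture, with no overlap between adenoma and epithelium (difference against monoculture 4.87, adjusted p = 1.89e-07). Transglutaminase 1 (Tgm1), which crosslinks that envelope, was 2.93 higher in adenoma than in monoculture (adjusted p = 4.10e-04, limma). Involucrin (Ivl) and cornifelin (Cnfn) were also called higher in that comparison. The water channel Aqp3 fell by 3.79 against monoculture. Dmkn was not called in co-culture without P28 and Pl_III (0.56, adjusted p = 0.50), and 3 of the 5 calls against monoculture were kept (Scel, Tgm1 and Aqp3).

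Of 23 tested transcription factors of squamous and simple epithelia, 2 rose with co-culture and 0 fell: Grhl1 by 1.49 ± 0.21 (adjusted p = 0.0035) and Grhl3 by 1.43 ± 0.27 (adjusted p = 0.013), both grainyhead-like factors of surface epithelium. Of all genes, 4.03% were called. Neither was called without P28 and Pl_III, Grhl1 at 1.69 (adjusted p = 0.064) and Grhl3 at 1.16 (adjusted p = 0.29). Grhl1 read 6.26, 6.52, 6.30 and 6.37 in adenoma, 5.28 and 5.72 in co-culture and 3.98 and 4.03 in monoculture, so that these 3 groups had the same order as for Krt80. In adenoma against monoculture 7 factors rose and 5 fell, against 22.5% and 18.5% of all genes, and 9 of the 12 calls were kept without P28 and Pl_III. In adenoma against co-culture 5 rose and 5 fell, against 19.0% and 14.3% of all genes, and 6 of the 10 were kept. In adenoma against monoculture Cdx1, an intestinal homeobox factor, differed by -4.59 (adjusted p = 3.64e-08, limma) and Sox9, a crypt factor, by 3.51 (adjusted p = 1.27e-06). Among 13 other intermediate filament genes 1 rose with co-culture, lamin A (Lmna, by 0.80, adjusted p = 0.025, against 4.03% of all genes called). It was not called without P28 and Pl_III (0.65, adjusted p = 0.25). In adenoma against monoculture Lmnb1 (2.92) and Nefh (1.48) rose and 0 fell, and both were kept without P28 and Pl_III.

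The genes whose profile lay closest to each keratin were found by the root mean square difference between profiles over the 14 samples, each profile centred on its own mean. Closest to Krt8 were Mal2, Elf3 and Dsg2 (0.30 to 0.34), and to Krt18 Elf3, Rab25 and Krt8 (0.27 to 0.36). Closest to Krt19 were Lad1, Nipal2 and Tmem30b (0.24 to 0.39). Krt7 lay nearest Prom1, Esrp1 and Gata5 (0.39 to 0.45), and Krt23 nearest Serpinb5, Cldn4 and Prom1 (0.31 to 0.45). Krt4 lay nearest Epn3, Grhl3 and Ildr1 (0.47 to 0.69), and Krt80 nearest Il33, Samd5 and Grhl1 (0.56 to 0.63). Krt20, the gene low in adenoma, lay nearest Hnf4g, Cyp2b10 and Cyp2c65 (0.62 to 0.70), and its nearest listed keratin was Krt19 at 1.96, in place 374. Krt14 lay nearest Dusp18, Dsg3 and Nectin4 (0.41 to 0.48). The distances depend mostly on the gap between epithelium and myofibroblasts and have no p-value.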

How the data were processed

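RNA (150 ng) was amplified, biotin labelled and hybridised to 1-colour whole-transcript arrays, per the labels. The authors deposited log2 levels, which the submitters' processing notes credit to RMA (version, array library and build: not given in the sources used here). RMA equalises arrays, so a shift of most transcripts would be hidden, and low levels are compressed. No detection calls were used, and precision is limited by the few arrays per group.

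Gene symbols came from the platform annotation: 23521 carried 1 symbol, 1814 several and 16010 were unnamed here. Each gene was read from its brightest probe set. Genes whose highest group mean exceeded the 30th percentile of probe set means (2.67) were tested. Repeat arrays were averaged, leaving 14 samples of 9 animals. Means of 5 groups with a shared spread were fitted in limma 3.58.1 (R 4.3.3, 2-sided, Benjamini-Hochberg over 18095 genes, adjusted p under 0.05), after tests on simulated data. The T2 comparison split the adenoma group. The labels give mono- and co-cultures of each animal: their deviations from group means correlated at 0.33 in epithelium and 0.51 to 0.79 in fibroblasts. For 1 fibroblast monoculture the title names Pl_III and another label Pl_II (the title was followed), and the repeat arrays of P34 are labelled repeats of other sample codes (read as repeats of each other).

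Members and lists were chosen with earlier results of these data known. The text names all listed keratins, up to 4 called genes with the smallest p per other list and comparison, and the 3 nearest profiles per keratin. Per-sample values of Krt6a, Krt13, Trp63 and the mesothelial markers, and Dsg3, Itgb4, Ppl, Pkp3, Ivl, Lmna and Nefh where outside that rule, were named after their values were seen. Alternatives were other filters, cyclic loess, the mean of probe sets, another variance prior, the replicate block, first arrays only, compared groups only and left-out samples. Leaving out P28 and Pl_III was applied to the other lists after seeing the data.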

Additional observations from a re-analysis of the deposited data

Results flagged for a closer look

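The co-culture response of epithelium was set against that of myofibroblasts by the difference of the responses. For Krt80 the difference was 3.64 ± 0.41 and for Krt4 3.18 ± 0.58, both higher in epithelium in 2 of 2 animals than in any of the 3 myofibroblast animals. These are a description with no p-value, because the genes were chosen with the epithelial response known. Outside the cell type marker lists, 3 genes of the other lists were called for this difference, against 1.11% of all genes. It was 1.52 for periplakin (Ppl, adjusted p = 0.020, limma), 1.47 for Grhl1 (adjusted p = 0.031) and 1.05 for lamin A (Lmna, adjusted p = 0.048). The lists too were chosen with earlier results of these data known, and the contrast holds the same epithelial samples. These 3 calls are therefore a description as well. Without P28 and Pl_III none of these 3 was called (1.52, 1.72 and 1.01, with adjusted p = 0.097, 0.16 and 0.24 by limma). No keratin had an adenoma animal standing apart from the other 3 by Dixon's criterion. That criterion looks for a lone outlying animal, so it does not bear on the split by the tag T2. With so few animals it cannot show that they are alike.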

How the results depend on the processing

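Of the 9 keratins, 3 were called in co-cultured against monocultured epithelium. The count was 1 without animals P28 and Pl_III, 0 in the fit of only the groups compared, 4 with the replicate block (animal) and 2 with any 1 sample left out (2 to 2). With the block, 1370 genes were called in all against 729 without it. Krt80 was called in 11 of 12 alternatives, Krt4 in 10 and Krt23 in 6. Krt18 was called in 2 and Krt7 in 1, though neither was called in the main fit. In adenoma against monoculture the 6 calls became 4 to 7 with samples left out, and Krt18 was called in 9 of 14 alternatives. In adenoma against co-culture the 1 call became 2 with the 50th percentile filter and with only the groups compared, and 1 to 3 with samples left out (3 without P21). The 8 calls between epithelium and myofibroblasts became 7 to 8. The 2 calls in the difference of responses became 1 without P28 and Pl_III, 3 with the block and 1 to 2 with samples left out. The T2 count of 0 became 3 without P28 and Pl_III. The replicate block changed no other keratin call. The cause of these changes was not tested, beyond the smaller number of samples.

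Differences that changed sign were all uncalled. Krt19 in adenoma against monoculture was -0.093 after cyclic loess. Krt8 in the difference of responses was -0.018 after cyclic loess and -0.14 without P28 and Pl_III, and Krt14 in adenoma against co-culture was 0.29 without P28 and Pl_III. With samples left out, the difference of responses ran from -0.20 to 0.25 for Krt8, -0.14 to 0.48 for Krt19 and -0.16 to 0.71 for Krt20. The fibroblast difference ran from -0.12 to 0.50 for Krt19, -0.51 to 0.36 for Krt20 and -0.035 to 0.42 for Krt23. Krt8 ran from -0.10 to 0.0060 in adenoma against monoculture, Krt14 from -1.19 to 0.29 in adenoma against co-culture and from -0.37 to 0.33 in epithelium against fibroblasts, and Krt19 from -0.014 to 0.19 in T2. Cyclic loess moved the median level of samples by 0.09 or less. Groups of 2 to 4 samples, dim levels near 3 for Krt14, and a shared spread limit what can be told apart.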
